A study of Mus musculus with 6 samples.

Results

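Wnt ligands, Frizzled receptors and the proteins that modulate them were followed in the aorta of mice given angiotensin II (Ang II), the vasoconstrictor hormone that drives remodelling of the arterial wall. Members were taken by gene symbol from the table: the numbered Wnt, Fzd, Sfrp, Dkk and Rspo genes, together with Frzb, Wif1, Lrp5, Lrp6, Axin2, Lef1 and Tcf7. This gave 46 members of 41064 genes in the table, which were 17 ligands, 10 Frizzled receptors, 2 co-receptors, 4 R-spondins, 10 secreted antagonists and 3 nuclear or feedback genes. RNA from aorta was sequenced in 6 libraries, 3 labelled WT with Ang II and 3 labelled JOSD2 KO with Ang II. Josd2 encodes a deubiquitinase of the Josephin family. Both groups received Ang II, and no untreated library was analysed here, so every difference is one between the labelled genotypes under treatment. Strain, age, sex, the Ang II dose and its duration, and the way the knockout was made were not stated in the labels. The design text names 3 mice per group without linking libraries to animals. The p-values therefore measure the spread between these libraries, which may be technical in part or in whole. They cannot be read as measuring the spread between animals.

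Wnt proteins are secreted lipid-modified ligands. They bind Frizzled receptors, and with the co-receptors Lrp5 or Lrp6 this binding keeps β-catenin from being degraded, so that it enters the nucleus and acts with TCF and LEF factors on target genes such as Axin2. A separate branch, often represented by Wnt5a and Wnt11, signals through Frizzleds and Ror receptors without β-catenin. Secreted frizzled-related proteins (Sfrp1, Sfrp2, Sfrp4, Sfrp5 and Frzb) and Wif1 bind Wnts outside the cell, Dickkopf proteins such as Dkk1 and Dkk2 bind the co-receptors, and R-spondins keep Frizzleds at the surface through Lgr receptors. In arteries, smooth muscle, endothelium and adventitial fibroblasts all express members of these families.

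Library totals were 63612353 to 75886761 in the deposited count unit, in which about 4 counts appear to stand for 1 read pair. Levels of 1 gene are given as CPM, counts brought to a common library size by TMM, edgeR's trimmed-mean scaling, with n = 3 libraries per group throughout. The log2 fold change of labelled knockout over wild type is written log2FC. Josd2 itself, the gene named in the knockout label, was at 29.9, 30.99 and 29.3 CPM in wild type and 21.7, 19.9 and 21.4 CPM in the libraries labelled knockout (log2FC -0.52, SE 0.07, edgeR adjusted p = 0.000244). It was lower in every library of that group but still detected in all of them, so these samples are called libraries labelled knockout. Scaling by library totals gave Josd2 a log2 fold change of -0.11 with an edgeR adjusted p of 0.231. Mitochondrially encoded genes took 36.2% of counts in each wild type library and 23.8% to 23.9% in the libraries labelled knockout, and the median log2FC of all genes was 0.41 higher with library totals than with TMM. Of 5 smooth muscle markers, which define the aortic media, 3 were called higher (Cnn1, Myh11 and Smtn, by 1.18 to 1.21-fold) and 1, Acta2, lower with TMM by 1.23-fold. Their sum, of which Acta2 and Tagln make up the larger part, was 19894 to 20073 CPM in wild type and 19261 to 19368 CPM in the libraries labelled knockout. By FPKM, levels per length on the scale of library totals, all 5 were higher in the libraries labelled knockout, including Acta2 (3302 and 3570). Libraries of a group lay close together for such abundant genes. Acta2 was at 9831, 9904 and 9878 CPM in wild type and 8040, 8041 and 8030 CPM in the libraries labelled knockout. Whether these libraries are separate animals was not tested. The protocol text in the labels speaks of adipose RNA where the tissue label says aorta, and white adipocyte markers summed to 45.7 to 48.3 CPM in wild type and 62.6 to 70.4 CPM in the libraries labelled knockout.

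Promoter sequences of 6 called members, chosen after their values and motif matches were seen, are shown first, because genes under Wnt control are often read through TCF/LEF sites near their starts. Sfrp2 is the member with the smallest p, Fzd1 and Wif1 are the called members whose windows hold a match, and Wnt9b, Wnt16 and Sfrp5 stand for called ligands and a called antagonist without one. RefSeq promoter windows on GRCm38.p6 were found for 31 of the 46 members, and the 250 bases before the start were searched on both strands for CTTTGA, a core of the TCF/LEF site, for GTCTAGAC, a palindrome bound by SMAD proteins, and for TATAAA, the TATA box. The matches in the sequences printed here do not overlap each other, and for Wif1 the bases up to the table's own gene start are shown. The windows are chr3:83766071-83766320 on the plus strand for Sfrp2, chr10:121033754-121033959 on the plus strand for Wif1, chr11:103749822-103750071 on the minus strand for Wnt9b, chr5:4758217-4758466 on the minus strand for Fzd1, chr6:22287977-22288226 on the plus strand for Wnt16 and chr19:42202253-42202502 on the minus strand for Sfrp5. Sfrp2, Wif1, Wnt9b and Fzd1 are members called higher, and Wnt16 and Sfrp5 are members called lower. Capitals mark matches, read 5′ to 3′ along the gene's strand, where TCAAAG is CTTTGA on the other strand and TTTATA is TATAAA on the other strand.
Sfrp2: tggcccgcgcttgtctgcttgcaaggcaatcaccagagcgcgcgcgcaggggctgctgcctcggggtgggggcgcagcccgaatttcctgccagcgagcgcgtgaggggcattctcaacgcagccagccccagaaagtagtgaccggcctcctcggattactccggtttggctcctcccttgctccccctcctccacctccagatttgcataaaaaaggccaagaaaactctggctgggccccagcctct
Wif1: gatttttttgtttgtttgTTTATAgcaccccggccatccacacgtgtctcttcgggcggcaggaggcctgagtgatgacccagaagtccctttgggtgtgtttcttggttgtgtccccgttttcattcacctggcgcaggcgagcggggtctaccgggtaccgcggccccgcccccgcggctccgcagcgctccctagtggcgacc
Wnt9b: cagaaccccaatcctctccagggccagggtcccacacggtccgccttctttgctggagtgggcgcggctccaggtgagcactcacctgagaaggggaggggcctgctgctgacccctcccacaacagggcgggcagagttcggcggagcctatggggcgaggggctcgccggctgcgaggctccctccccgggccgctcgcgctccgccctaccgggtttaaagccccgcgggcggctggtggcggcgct
Fzd1: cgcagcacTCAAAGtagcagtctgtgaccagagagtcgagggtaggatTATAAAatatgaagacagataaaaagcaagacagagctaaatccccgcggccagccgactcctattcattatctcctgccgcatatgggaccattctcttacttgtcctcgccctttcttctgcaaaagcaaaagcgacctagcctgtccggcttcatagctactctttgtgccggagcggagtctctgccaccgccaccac
Wnt16: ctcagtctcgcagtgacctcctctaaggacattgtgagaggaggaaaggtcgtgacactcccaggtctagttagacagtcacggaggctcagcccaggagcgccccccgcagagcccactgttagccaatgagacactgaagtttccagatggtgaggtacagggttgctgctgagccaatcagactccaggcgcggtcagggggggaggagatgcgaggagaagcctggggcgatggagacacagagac
Sfrp5: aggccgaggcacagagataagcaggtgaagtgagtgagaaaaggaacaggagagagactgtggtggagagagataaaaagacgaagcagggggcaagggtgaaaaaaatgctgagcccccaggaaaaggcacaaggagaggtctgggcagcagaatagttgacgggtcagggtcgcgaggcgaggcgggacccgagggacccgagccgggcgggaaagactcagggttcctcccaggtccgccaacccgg

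CTTTGA was present in 4 of the 31 member windows (Dkk1, Frzb, Fzd1 and Wnt11), or 12.9%, against 13.8% of all 32851 windows in the table. TATAAA was present in 5 member windows (Dkk1, Dkk2, Fzd1, Wif1 and Wnt11), or 16.1%, against 12.4% of all windows. GTCTAGAC was in none of the 31 and in 0.167% of all windows. Of the members with a window, 7 were called higher and 5 lower, and CTTTGA was in 1 of the former, Fzd1, and in 0 of the latter. What the member windows shared was base composition: their median GC content was 69.2%, with a range of 48.4% to 85.2%, against a median of 52.4% over all windows, and 29 of the 31 lay above that value. The windows end at the RefSeq start, which for some members lies within the gene as the table places it, by 229 bases for Frzb and 169 for Dkk1. The CTTTGA of Frzb is in that part. For 22 of the 31 members, bases 21 to 50 after the RefSeq start were found in a GENCODE transcript of the gene. These matches describe letters in the windows and say nothing of binding.

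Of the 46 members, 39 had enough counts for the quasi-likelihood test of edgeR, with p-values adjusted by Benjamini-Hochberg over all 20132 tested genes. Against wild type, 13 members were higher in the libraries labelled knockout and 6 were lower at an adjusted p under 0.05, while 20 did not pass. The 19 called members are 48.7% of those tested, and 24.7% of all tested genes were called. By direction, 13.2% of all tested genes were called higher and 11.5% lower. The groups did not overlap in CPM for 22 of the 39 members, 13 of them higher and 9 lower, against 41.1% of all tested genes. The median log2 fold change of the tested members was -0.10, beside -0.0031 for all tested genes. By level, of the 17 members with a mean of at least 10 CPM, 13 were called (76.5%), where 39.9% of all genes at that level were, and of the 22 tested members below it, 6 were called (27.3%), where 13.6% of all genes below it were. That level was chosen after the values were seen.

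**Figure D1:**
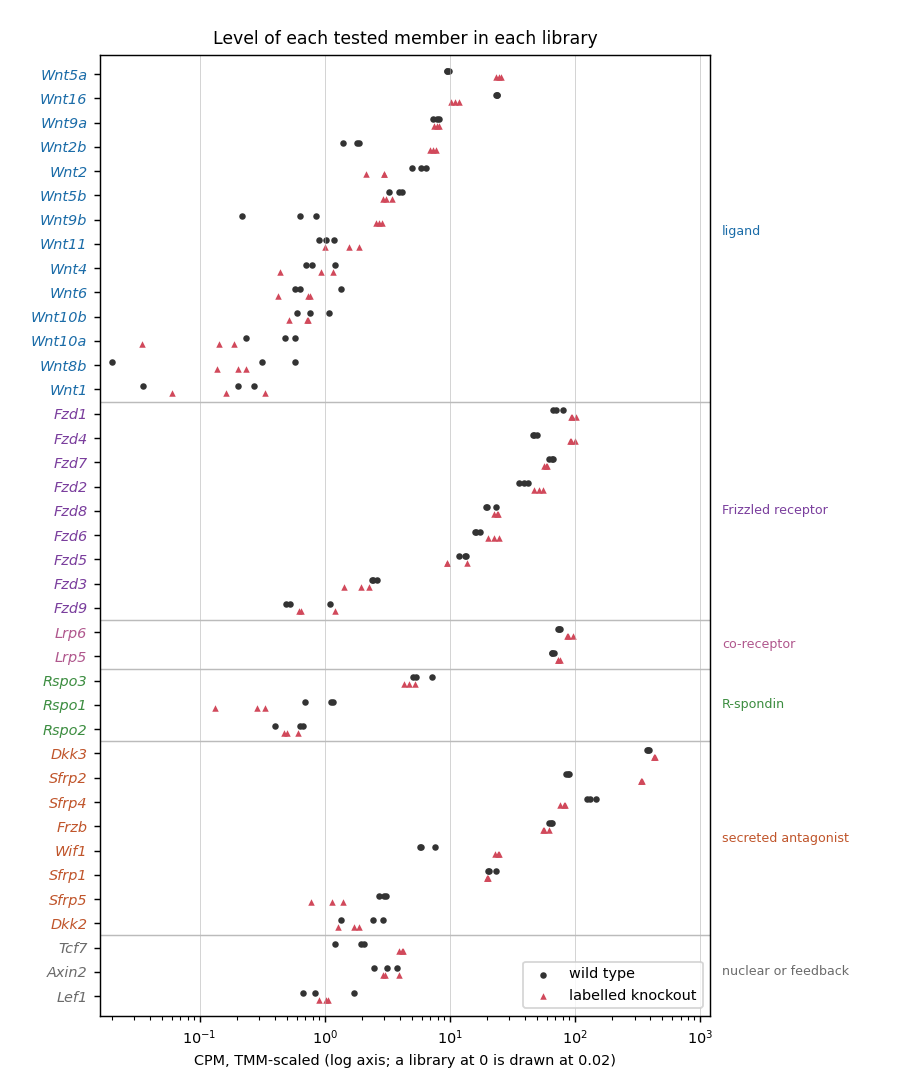
Each point is the CPM of 1 tested member in 1 library, on a log axis, with circles for the 3 wild type libraries and triangles for the 3 libraries labelled knockout, and members grouped by role. Dkk3 and Sfrp2 are the most abundant members by CPM in the libraries labelled knockout, and the triangles of Sfrp2, Wif1, Wnt5a and Wnt2b lie clear of the circles on the right.

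Levels of different genes were compared per length, as FPKM. In wild type the highest members were the divergent Dickkopf protein Dkk3 at 84.2 ± 1.05 FPKM, Sfrp2 at 29.7 ± 0.866, Sfrp4 at 23.8 ± 1.90, Frzb at 14.6 ± 0.405, Fzd1 at 12.7 ± 1.18 and Fzd7 at 10.5 ± 0.328 (mean ± SD, n = 3). Each of these lay above the next in every wild type library. Fzd4 and Lrp5 overlapped in that order, as did Lrp6 and Wnt16, the most abundant ligand at 3.99 ± 0.0221 FPKM. In the libraries labelled knockout the order was Sfrp2 at 155 ± 1.40 FPKM, Dkk3 at 126 ± 2.001 and Fzd1 at 22.6 ± 1.14. Sfrp4 and Frzb overlapped next, at 18.8 and 17.5 FPKM, and Fzd4, Fzd2 and Fzd7 overlapped in turn at 13.7, 13.6 and 12.6. Antagonists occupied the top of the order in both groups, and no ligand reached the mean FPKM of Fzd1, Fzd2, Fzd4 or Fzd7 in either.

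Among the ligands, 3 rose, 2 fell and 9 of the 14 tested did not pass the test. Wnt5a (chr14:28504750-28527448, plus strand), the best known ligand of the β-catenin-independent branch, was at 9.79, 9.58 and 9.53 CPM in wild type and 25.6, 24.8 and 23.5 CPM in the libraries labelled knockout. All of the latter lay above all of the former, a rise from 9.64 ± 0.136 to 24.7 ± 1.05 CPM (mean ± SD) that is 2.56-fold (log2FC 1.36, SE 0.08, edgeR adjusted p = 5.72e-07). The antisense gene Gm2670 overlaps 4.58% of the summed Wnt5a exon bases, up to 65.1% of a single Wnt5a transcript matches it, and it had at most 23 counts in any library. Wnt2b (chr3:104945272-104961921, minus strand), which acts through β-catenin in several embryonic organs, was at 1.81, 1.86 and 1.40 CPM in wild type and 7.36, 7.70 and 6.99 CPM in the libraries labelled knockout. The groups were again apart, by 4.35-fold (log2FC 2.12, SE 0.18, edgeR adjusted p = 8.81e-06). Wnt9b (chr11:103727364-103749821, minus strand), known from the induction of kidney tubules, had counts of 47, 36 and 14 in wild type and 217, 226 and 241 in the libraries labelled knockout. The third wild type library was the lowest, near the limit that 3 read pairs set (0.137 to 0.218 CPM), and the group means of 0.568 ± 0.322 and 2.73 ± 0.154 CPM differed 4.83-fold (log2FC 2.27, SE 0.42, edgeR adjusted p = 0.0024).

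Wnt16 (chr6:22288227-22298522, plus strand), a ligand best known from bone, was at 23.8, 23.6 and 23.8 CPM in wild type and 11.05, 11.8 and 10.1 CPM in the libraries labelled knockout. Every wild type library lay above every library labelled knockout, and the level fell 2.16-fold (log2FC -1.11, SE 0.09, edgeR adjusted p = 4.13e-06). Wnt2 (chr6:17988940-18030585, minus strand), a ligand of lung and other mesenchyme, was at 5.87, 5.01 and 6.46 CPM in wild type and 2.97, 2.14 and 2.97 CPM in the libraries labelled knockout. It fell 2.15-fold with no overlap (log2FC -1.10, SE 0.20, edgeR adjusted p = 0.00199). Markers of lung epithelium moved in the same direction: 4 of 4 were called lower, none was at 0 in all libraries, and their summed level was 12.05 to 16.4 CPM in wild type and 0.676 to 1.24 CPM in the libraries labelled knockout. Other non-aortic tissues differed as well. Kidney markers summed to 28.4 to 32.3 CPM in wild type and 9.98 to 11.3 in the libraries labelled knockout (2 of 5 called lower). Seminal vesicle markers summed to 2.59 to 3.65 and 0.112 to 0.264 CPM (3 of 4 called lower). Cardiac muscle markers went up, from 19.2 to 19.6 CPM to 28.8 to 30.5 CPM (2 of 4 called higher). In bulk tissue fewer cells of a type and less RNA per cell cannot be told apart, and the part of lung or other tissue in the Wnt2 values was not tested.

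The ligands that did not pass include Wnt9a, a regulator of joint formation, at 7.32, 7.93 and 8.13 CPM in wild type and 7.89, 7.52 and 8.17 CPM in the libraries labelled knockout (log2FC 0.01, SE 0.12, edgeR adjusted p = 0.966). Its values overlapped throughout, but with library totals it was called higher, at 0.42 (edgeR adjusted p = 0.0156). Wnt5b was at 4.15, 3.92 and 3.24 CPM in wild type and 3.46, 3.07 and 2.93 CPM in the libraries labelled knockout and also overlapped (log2FC -0.26, SE 0.19, edgeR adjusted p = 0.385). Wnt11, the other classic β-catenin-independent ligand, was at 1.02, 1.18 and 0.900 CPM in wild type and 1.89, 1.57 and 1.01 CPM in the libraries labelled knockout (log2FC 0.53, SE 0.34, edgeR adjusted p = 0.303). In the libraries labelled knockout the third was within the wild type range and the others above it. With library totals Wnt11 was called higher as well, at 0.94 (edgeR adjusted p = 0.0372). Wnt10a was at 0.236, 0.580 and 0.481 CPM in wild type and 0.187, 0.0344 and 0.144 CPM in the libraries labelled knockout, so its groups did not overlap, at levels close to the limit of 3 read pairs, and it did not pass (log2FC -1.82, SE 0.87, edgeR adjusted p = 0.167). Log2 fold changes of Wnt4, Wnt6, Wnt10b, Wnt8b and Wnt1 were -0.10, -0.42, -0.31, -0.63 and 0.12, with SE of 0.45, 0.49, 0.43, 1.15 and 1.04. Their levels were at most 1.35 CPM in any library. Wnt3 had counts of 0, 3 and 0 in wild type and 10, 0 and 0 in the libraries labelled knockout and was not tested, and Wnt7a and Wnt7b had 0 counts in all 6 libraries, which at this depth allows up to 0.137 to 0.218 CPM per library.

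Some ligand genes lie side by side. Wnt9b and Wnt3 are 24328 bases apart on chromosome 11, on opposite strands, with Wnt9b called higher and Wnt3 at no more than 10 counts in any library. Wnt6 and Wnt10a are 6193 bases apart on chromosome 1, and Wnt10b and Wnt1 are 11706 bases apart on chromosome 15; none of these 4 passed the test. No other 2 members lie within 100 kb of each other in the table.

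Of the 9 Frizzled receptors tested, 4 rose, 1 fell and 4 did not pass. Fzd4 (chr7:89404355-89413134, plus strand), the receptor for norrin in vessel growth as well as for Wnts, was at 50.2, 46.5 and 47.4 CPM in wild type and 99.6, 93.8 and 90.7 CPM in the libraries labelled knockout. Every library labelled knockout lay above the wild type range, and the level rose from 48.05 ± 1.94 to 94.7 ± 4.52 CPM, or 1.97-fold (log2FC 0.98, SE 0.05, edgeR adjusted p = 1.49e-07). Endothelial markers moved with it: 5 of 5 were called higher and none was at 0 in all libraries. Their summed level was 359 to 367 CPM in wild type and 631 to 644 CPM in the libraries labelled knockout. Of 5 lymphatic endothelial markers 3 were called higher, with Prox1 9.02-fold, Mmrn1 5.29-fold and Flt4 3.97-fold, and Lyve1 was called lower with TMM by 1.20-fold. The remaining marker, Ccl21a, was lower in CPM without overlap but not called (log2FC -0.57, edgeR adjusted p = 0.0609). The lymphatic markers summed to 38.5 to 42.3 CPM in wild type and 77.6 to 78.4 CPM in the libraries labelled knockout, and none was at 0 in all libraries. The part of blood or lymphatic endothelial RNA in the Fzd4 values was not tested.

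Fzd1 (chr5:4753839-4758035, minus strand), the most abundant Frizzled per length in both groups, was at 80.4, 70.6 and 67.5 CPM in wild type and 95.6, 103 and 93.5 CPM in the libraries labelled knockout. The first wild type library was the highest of its group, and the groups did not overlap (1.34-fold, log2FC 0.42, SE 0.07, edgeR adjusted p = 0.000708). Its close relative Fzd2 (chr11:102604396-102608058, plus strand) was at 39.5, 42.00 and 35.5 CPM in wild type and 51.3, 47.1 and 55.2 CPM in the libraries labelled knockout. The difference was 1.31-fold, again without overlap (log2FC 0.39, SE 0.08, edgeR adjusted p = 0.00325). Fzd6 (chr15:39006034-39038188, plus strand), a receptor with a role in planar cell polarity, was at 15.99, 16.1 and 17.4 CPM in wild type and 20.3, 24.6 and 22.4 CPM in the libraries labelled knockout. It rose 1.36-fold (log2FC 0.44, SE 0.09, edgeR adjusted p = 0.00456).

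Fzd7 (chr1:59482424-59486955, plus strand), the third of the Fzd1, Fzd2 and Fzd7 subgroup, was at 65.8, 66.7 and 62.7 CPM in wild type and 56.2, 60.3 and 59.1 CPM in the libraries labelled knockout. The groups did not overlap, and Fzd7 was 1.11-fold lower with TMM (log2FC -0.15, SE 0.05, edgeR adjusted p = 0.0447), while with library totals it was higher, at a log2 fold change of 0.26. Leaving out any library but the third wild type one raised its adjusted p above 0.05, to between 0.0711 and 0.177 by edgeR. Fzd8 was at 19.8, 23.6 and 19.6 CPM in wild type and 22.6, 23.9 and 24.2 CPM in the libraries labelled knockout and overlapped (log2FC 0.17, SE 0.09, edgeR adjusted p = 0.217). Without the second wild type library it was called higher, at 0.26 (edgeR adjusted p = 0.045). Fzd3, a polarity receptor like Fzd6, was at 2.63, 2.41 and 2.45 CPM in wild type and 1.43, 2.25 and 1.93 CPM in the libraries labelled knockout, lower without overlap but not called (log2FC -0.42, SE 0.25, edgeR adjusted p = 0.275). Fzd5 and Fzd9 had log2 fold changes of -0.23 and 0.22 with SE of 0.15 and 0.49. Without the third library labelled knockout Fzd5 passed the test as lower, at -0.43 (edgeR adjusted p = 0.0476). Fzd10 had at most 8 counts in any library and was not tested.

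Both co-receptors were called higher, by less than the Frizzleds that rose. Lrp6 (chr6:134446476-134566913, minus strand) was at 73.4, 74.1 and 76.4 CPM in wild type and 97.4, 87.1 and 88.9 CPM in the libraries labelled knockout. The first library labelled knockout was the highest, and the change of 1.22-fold had no overlap (log2FC 0.29, SE 0.05, edgeR adjusted p = 0.00143). Lrp5 (chr19:3584828-3686564, minus strand), which has a known role in retinal vessels and bone, was at 66.05, 66.3 and 67.9 CPM in wild type and 75.6, 73.2 and 73.7 CPM in the libraries labelled knockout. Its values were tight within each group, and the rise was 1.11-fold (log2FC 0.15, SE 0.04, edgeR adjusted p = 0.021). Without the first or the third library labelled knockout the edgeR adjusted p of Lrp5 was 0.0817 and 0.0553.

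R-spondins were low. Rspo1 (chr4:124986430-125009099, plus strand), an enhancer of β-catenin signalling through Lgr receptors, had counts of 62, 66 and 45 in wild type and 23, 29 and 11 in the libraries labelled knockout. It fell from 0.994 ± 0.257 to 0.250 ± 0.105 CPM, 3.95-fold, without overlap (log2FC -1.98, SE 0.53, edgeR adjusted p = 0.0196). The edgeR adjusted p was 0.0573 without the first wild type library, 0.0625 without the second, and 0.0606 without the third library labelled knockout. Rspo3, the most abundant R-spondin and one with a role in vessel development, was at 7.20, 5.42 and 5.08 CPM in wild type and 4.71, 5.32 and 4.30 CPM in the libraries labelled knockout and did not pass (log2FC -0.30, SE 0.18, edgeR adjusted p = 0.271). Rspo2 had a log2 fold change of -0.12 (SE 0.49), and Rspo4 had 0 counts in all libraries.

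The secreted antagonists held both the most abundant members and the smallest adjusted p. Of the 8 tested, 3 rose, 2 fell and 3 did not pass. Sfrp2 (chr3:83766321-83774316, plus strand), a Wnt-binding decoy that shares the cysteine-rich domain of Frizzleds, was at 84.3, 87.6 and 89.2 CPM in wild type and 339, 341 and 344 CPM in the libraries labelled knockout. Libraries within a group differed by a few CPM, while the group means went from 87.01 ± 2.48 to 342 ± 2.61 CPM, a 3.93-fold rise (log2FC 1.97, SE 0.03, edgeR adjusted p = 2.86e-12). A stretch of its exons, 16.1%, is overlapped by the antisense gene Gm26771, which had at most 18 counts in any library. Sfrp4 (chr13:19623104-19632994, plus strand), another decoy of the family, went the other way, at 126, 133 and 147 CPM in wild type and 76.8, 81.7 and 83.5 CPM in the libraries labelled knockout. It fell 1.68-fold without overlap (log2FC -0.75, SE 0.06, edgeR adjusted p = 3.26e-06).

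Fibroblast markers were measured beside Sfrp2 and Sfrp4: of 6, 5 were called lower with TMM and 1, Pdgfra, higher. Their summed level was 5601 to 5732 CPM in wild type and 3659 to 3673 CPM in the libraries labelled knockout, and none was at 0 in all libraries. Col1a1 makes up the larger part of that sum, with group means of 3968 and 2170 CPM. By FPKM, which share the scale of library totals, Col1a1 was lower too (444 and 322). Dcn (103 and 129), Lum (101 and 111) and Pi16 (19.6 and 21.4) were higher by FPKM, as was Pdgfra. For Dpt the groups overlapped by FPKM (137 and 141). The part of fibroblast RNA in the Sfrp2 and Sfrp4 values was not tested.

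Wif1 (chr10:121033960-121100650, plus strand), which sequesters Wnts directly, was at 5.80, 7.69 and 5.93 CPM in wild type and 24.5, 24.8 and 22.9 CPM in the libraries labelled knockout. The rise was 3.72-fold with wide separation (log2FC 1.89, SE 0.12, edgeR adjusted p = 7.25e-07). Sfrp5 (chr19:42197971-42202252, minus strand), an antagonist secreted by fat among other tissues, was at 3.06, 2.73 and 2.98 CPM in wild type and 1.39, 1.15 and 0.781 CPM in the libraries labelled knockout. It fell 2.64-fold (log2FC -1.40, SE 0.28, edgeR adjusted p = 0.00369), while of 5 white adipocyte markers 2 were called higher and 0 lower, and the part of fat in its values was not tested. Dkk3 (chr7:112116017-112159057, minus strand), whose effect on Wnt signalling is less settled than that of the other Dickkopfs, was at 383, 391 and 380.3 CPM in wild type and 442, 430.4 and 428 CPM in the libraries labelled knockout. Its small rise of 1.13-fold exceeded the spread between libraries (log2FC 0.17, SE 0.02, edgeR adjusted p = 0.000178).

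Frzb, also called Sfrp3 and abundant in cartilage and connective tissue, was at 65.9, 62.6 and 64.9 CPM in wild type and 56.2, 62.3 and 55.5 CPM in the libraries labelled knockout. The libraries labelled knockout all lay below the wild type ones, but the test was not passed (log2FC -0.15, SE 0.06, edgeR adjusted p = 0.0704). DESeq2 called it lower at a log2 fold change of -0.16 (adjusted p = 0.00854), and with library totals it was higher at 0.26. Sfrp1 was at 20.5, 23.4 and 20.2 CPM in wild type and 19.7, 19.8 and 20.2 CPM in the libraries labelled knockout and overlapped (log2FC -0.10, SE 0.08, edgeR adjusted p = 0.432). Dkk2, a co-receptor antagonist, was at 1.36, 2.90 and 2.45 CPM in wild type and 1.87, 1.27 and 1.71 CPM in the libraries labelled knockout with overlap (log2FC -0.47, SE 0.32, edgeR adjusted p = 0.338). Dkk1, the best known Dickkopf, had counts of 4, 11 and 9 in wild type and 0, 15 and 0 in the libraries labelled knockout and Dkk4 had 2, 4 and 0 in wild type and 0, 0 and 2 in the libraries labelled knockout; neither was tested.

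**Figure D2:**
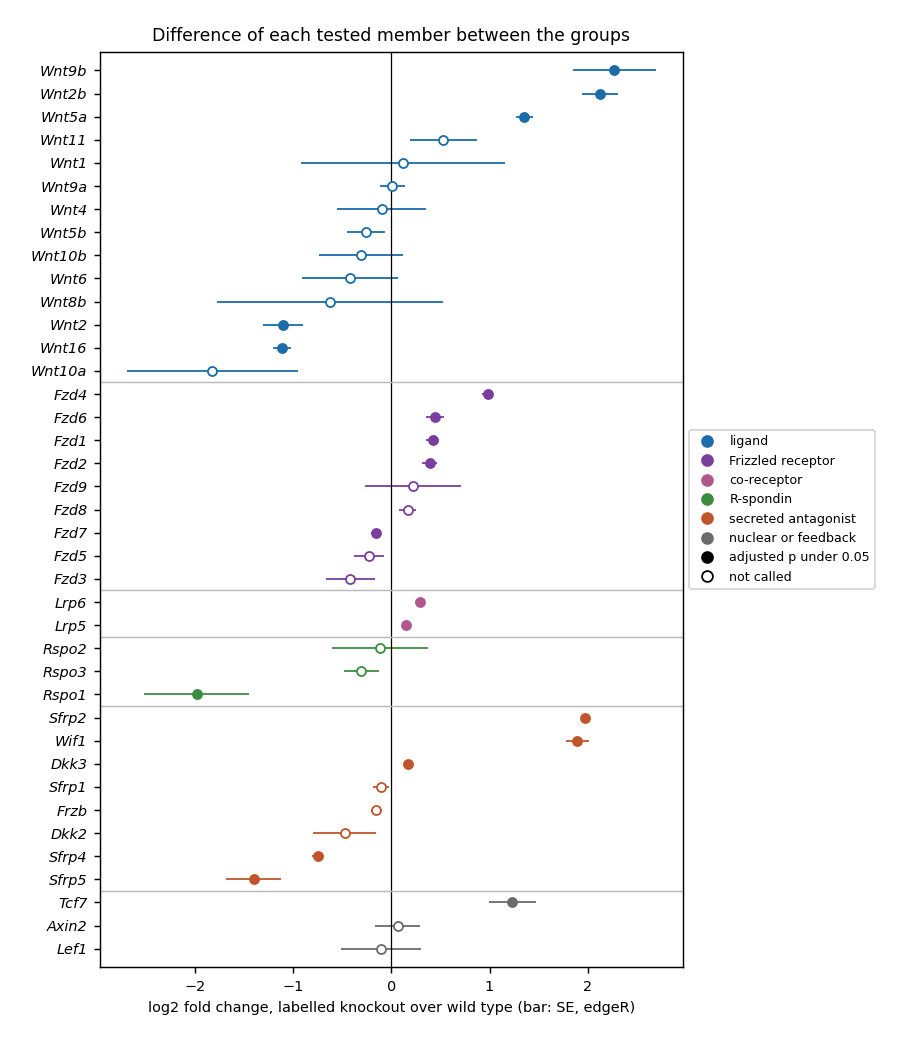
Each point is the log2 fold change of 1 tested member, labelled knockout over wild type, with its SE from edgeR as a bar. Filled points passed an adjusted p under 0.05 and open points did not. Sfrp2, Wif1, Wnt2b, Wnt9b, Wnt5a and Tcf7 stand more than 1 log2 unit above 0, and Rspo1, Sfrp5, Wnt16 and Wnt2 more than 1 unit below it among called members.

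Shares within a family do not depend on how the libraries are scaled against each other. They were computed from FPKM after the values were seen and carry no test. Wnt16 went from 36.5 ± 0.609% to 18.01 ± 1.19% of the summed ligand FPKM, and Wnt2 from 17.2 ± 2.33% to 8.52 ± 1.52%. Wnt5a went from 8.25 ± 0.174% to 22.6 ± 0.429% and Wnt2b from 2.67 ± 0.389% to 12.5 ± 0.535%. Wnt16 was thus the leading ligand in wild type, and Wnt5a led in the libraries labelled knockout. Among the Frizzleds, Fzd4 went from 12.2 ± 0.518% to 18.8 ± 1.13% and Fzd7 from 24.4 ± 0.504% to 17.2 ± 0.395%, while Fzd1 held the top place, from 29.5 ± 1.73% to 30.98 ± 1.44%. Among the antagonists, Sfrp2 went from 18.6 ± 0.256% to 46.6 ± 0.445%, Dkk3 from 52.8 ± 1.02% to 37.9 ± 0.598% and Sfrp4 from 14.9 ± 0.990% to 5.67 ± 0.251%. A share also depends on the rest of the family. Dkk3 lost share although its own FPKM went from 84.2 to 126, while the summed antagonist FPKM went from 159 to 332.

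**Figure D3:**
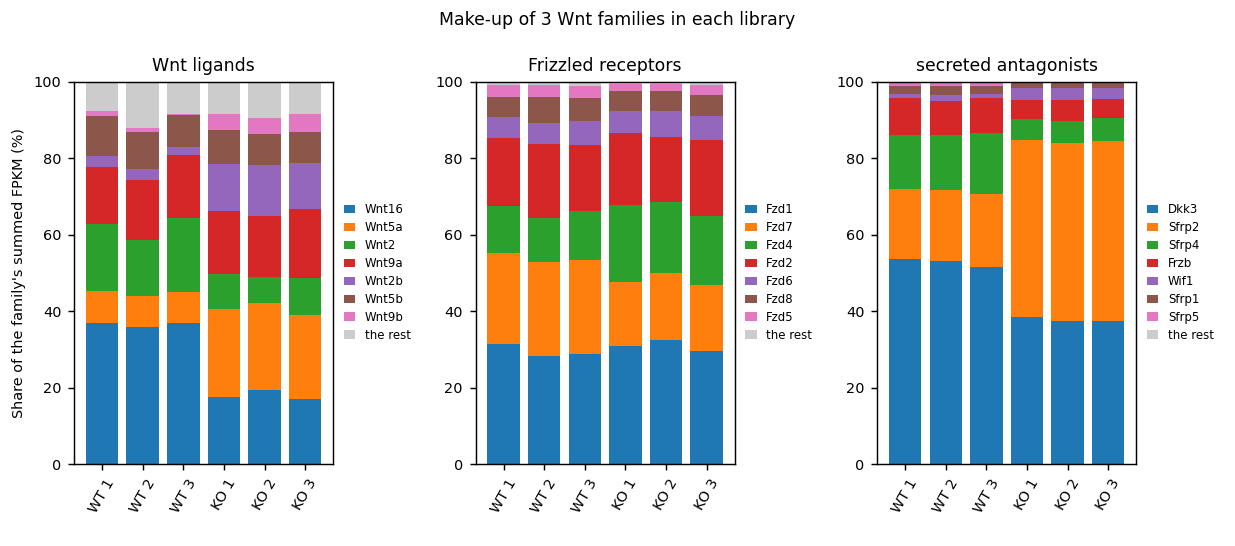
Stacked bars give the percent of a family's summed FPKM held by each member, for 3 families and 6 libraries (WT, wild type; KO, labelled knockout). Within each group the bars look alike. In the libraries labelled knockout the shares of Wnt5a, Fzd4 and Sfrp2 are larger and those of Wnt16, Fzd7 and Dkk3 smaller. A smaller share does not by itself mean a lower level.

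Ratios within a library restate these contrasts for chosen pairs and carry no test. The FPKM of Sfrp2 over that of Sfrp4 was 1.25 ± 0.0642 in wild type and 8.23 ± 0.305 in the libraries labelled knockout. Wnt5a over Wnt16 was 0.226 ± 0.00309 in wild type and 1.26 ± 0.0690 in the libraries labelled knockout. Wnt2b over its relative Wnt2 was 0.159 ± 0.0420 in wild type and 1.51 ± 0.368 in the libraries labelled knockout, and Fzd4 over Fzd7 was 0.498 ± 0.0246 in wild type and 1.09 ± 0.0886 in the libraries labelled knockout. In each of these pairs a member called higher was set over one called lower. That every library labelled knockout had a higher ratio than any wild type library therefore follows from the choice of pairs. The ratio of the co-receptors, Lrp6 over Lrp5, was 0.796 ± 0.00477 in wild type and 0.875 ± 0.0374 in the libraries labelled knockout.

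Axin2, the feedback gene most often read as a measure of β-catenin activity, was at 3.15, 3.76 and 2.50 CPM in wild type and 3.89, 2.92 and 3.03 CPM in the libraries labelled knockout. The groups overlapped, and the difference between means was smaller than its SE (log2FC 0.06, SE 0.23, edgeR adjusted p = 0.877). Lef1, a TCF-family factor, was at 1.70, 0.844 and 0.668 CPM in wild type and 0.896, 1.02 and 1.07 CPM in the libraries labelled knockout and likewise overlapped (log2FC -0.10, SE 0.41, edgeR adjusted p = 0.89). Tcf7 (chr11:52252371-52283331, minus strand), the TCF-family factor of T lymphocytes, was at 1.21, 1.95 and 2.05 CPM in wild type and 3.89, 4.25 and 4.13 CPM in the libraries labelled knockout. It rose 2.35-fold without overlap (log2FC 1.23, SE 0.24, edgeR adjusted p = 0.00326). Thymocyte markers moved with Tcf7: of 6, 4 were called higher, and their summed level was 1.09 to 1.85 CPM in wild type and 6.84 to 8.48 CPM in the libraries labelled knockout. Of 7 general T cell markers 1 was called higher, with sums of 5.44 to 10.9 CPM in wild type and 8.14 to 9.49 CPM in the libraries labelled knockout, and none of either list was at 0 in all libraries. The part of lymphoid RNA in the Tcf7 values was not tested.

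Beyond the members, 82 other genes of the pathway were followed in 7 lists, and 25 of the 77 tested were called higher and 10 lower (45.5% called, against 24.7% of all tested genes, with 13.2% higher and 11.5% lower). By list, the called share was 83.3% for secretion, 30.0% for other receptors, 33.3% for other inhibitors and 38.1% for the cytoplasmic relay. It was 45.5% for nuclear partners, 71.4% for target genes and 23.1% for planar cell polarity. Each share rests on only 6 to 21 tested genes. The lists share genes, so their shares are not independent: Lgr5, for example, is on both the receptor and the target list. The totals count each gene once, and counts by list can add up to more. Over all genes 39.9% were called at a mean of at least 10 CPM and 13.6% below it. The lists were not split by level, so their shares cannot be set against a background of like level. The median log2 fold change of the 77 tested genes was 0.15, beside -0.0031 for all tested genes. In the secretion list 3 rose and 2 fell of 6, among them the glypicans Gpc6 (log2FC 0.96, edgeR adjusted p = 6.78e-06) and Gpc3 (log2FC 0.69, edgeR adjusted p = 9.27e-05). Wls, the carrier that brings Wnts to the surface, was 0.21 lower on the log2 scale (edgeR adjusted p = 0.00263) but higher, at 0.20, with library totals. Trabd2b, a protease that inactivates Wnts, was at -0.26 (edgeR adjusted p = 0.00643) and at 0.15 with library totals.

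In the list of other receptors 1 rose and 2 fell of 10. Lgr6, an R-spondin receptor, was at 106, 107 and 103 CPM in wild type and 251, 253 and 255 CPM in the libraries labelled knockout and rose in every library (log2FC 1.26, edgeR adjusted p = 1.33e-10). Its relative Lgr5 fell (log2FC -1.01, edgeR adjusted p = 0.0166), with an edgeR adjusted p of 0.055 and 0.0576 without the first or the third library labelled knockout, and Lgr4 did not pass with TMM (log2FC 0.29, edgeR adjusted p = 0.0531) but did with library totals, at 0.70. Ror1, a receptor for Wnt5a, was called lower (log2FC -0.28, edgeR adjusted p = 0.00513), with 0.13 under library totals. Of 6 other inhibitors 2 rose. Sost, the Lrp5 and Lrp6 antagonist sclerostin, was at 305, 307 and 309 CPM in wild type and 614, 616 and 619.9 CPM in the libraries labelled knockout (log2FC 1.01, edgeR adjusted p = 1.51e-11). Igfbp4, which can bind Lrp6 and Fzd8, also rose (log2FC 0.33, edgeR adjusted p = 2.46e-07), while Sostdc1 did not pass (log2FC -1.25, edgeR adjusted p = 0.0613).

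Of 21 genes of the cytoplasmic relay and destruction complex, 7 rose and 1 fell. The Dishevelled partners Dact3 and Dact1 rose (log2FC 0.62, edgeR adjusted p = 2.53e-06, and log2FC 0.58, edgeR adjusted p = 0.006), as did Dishevelled itself, Dvl1 (log2FC 0.27, edgeR adjusted p = 0.00176). The kinase Csnk1a1, which primes β-catenin for degradation, was called lower at -0.16 (edgeR adjusted p = 0.00555) and was at 0.25 with library totals. Of 11 nuclear partners 5 rose and 0 fell, among them the corepressor Tle2 (log2FC 0.65, edgeR adjusted p = 0.00217), the factors Tcf7l2 (log2FC 0.52, edgeR adjusted p = 0.00248) and Tcf7l1 (log2FC 0.34, edgeR adjusted p = 0.0142), and the coactivator Bcl9l (log2FC 0.47, edgeR adjusted p = 0.0156). Of 13 planar cell polarity genes 3 rose, which were Fuz (log2FC 0.56, edgeR adjusted p = 0.00134), the formin Daam1 (log2FC 0.34, edgeR adjusted p = 0.0123) and Scrib (log2FC 0.26, edgeR adjusted p = 0.0363). The calls of Scrib, Tcf7l1 and Bcl9l were lost when single libraries were left out, with edgeR adjusted p of 0.0631 to 0.124 for Scrib without the second wild type library or any labelled knockout library. They were 0.0511 to 0.0701 for Tcf7l1 without the first or second wild type or the third labelled knockout library, and 0.0573 for Bcl9l without the third labelled knockout library.

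Genes described elsewhere as Wnt targets moved both ways, with 4 higher and 6 lower of 14 tested and a median log2 fold change of -0.09. Ccn5, a matricellular protein of smooth muscle, was at 228, 227 and 229.5 CPM in wild type and 535, 533 and 517 CPM in the libraries labelled knockout and rose (log2FC 1.21, edgeR adjusted p = 1.51e-11). The adhesion receptor Cd44 was at 76.3, 83.2 and 80.2 CPM in wild type and 52.3, 42.99 and 45.4 CPM in the libraries labelled knockout and fell (log2FC -0.77, edgeR adjusted p = 1.41e-05). Most macrophage markers moved with Cd44, which leukocytes express: 4 of 5 were called lower with TMM, and none was at 0 in all libraries. The summed level of the 5 was 546 to 563 CPM in wild type and 263 to 267 CPM in the libraries labelled knockout. Lyz2 makes up the larger part of that sum, with group means of 401 and 156 CPM. Mrc1 was not called, and by FPKM it was higher in the libraries labelled knockout (5.40 and 6.24), while the means of the others were lower. For Csf1r the groups overlapped by FPKM, with means of 8.13 in wild type and 7.87 in the libraries labelled knockout. The part of macrophage RNA in the Cd44 values was not tested. Ccn4, a matricellular protein of the same family as Ccn5, fell as well (log2FC -0.69, edgeR adjusted p = 0.000134), and the pseudoreceptor Bambi rose (log2FC 0.70, edgeR adjusted p = 0.000916). These genes also answer to pathways other than Wnt.

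**Figure D4:**
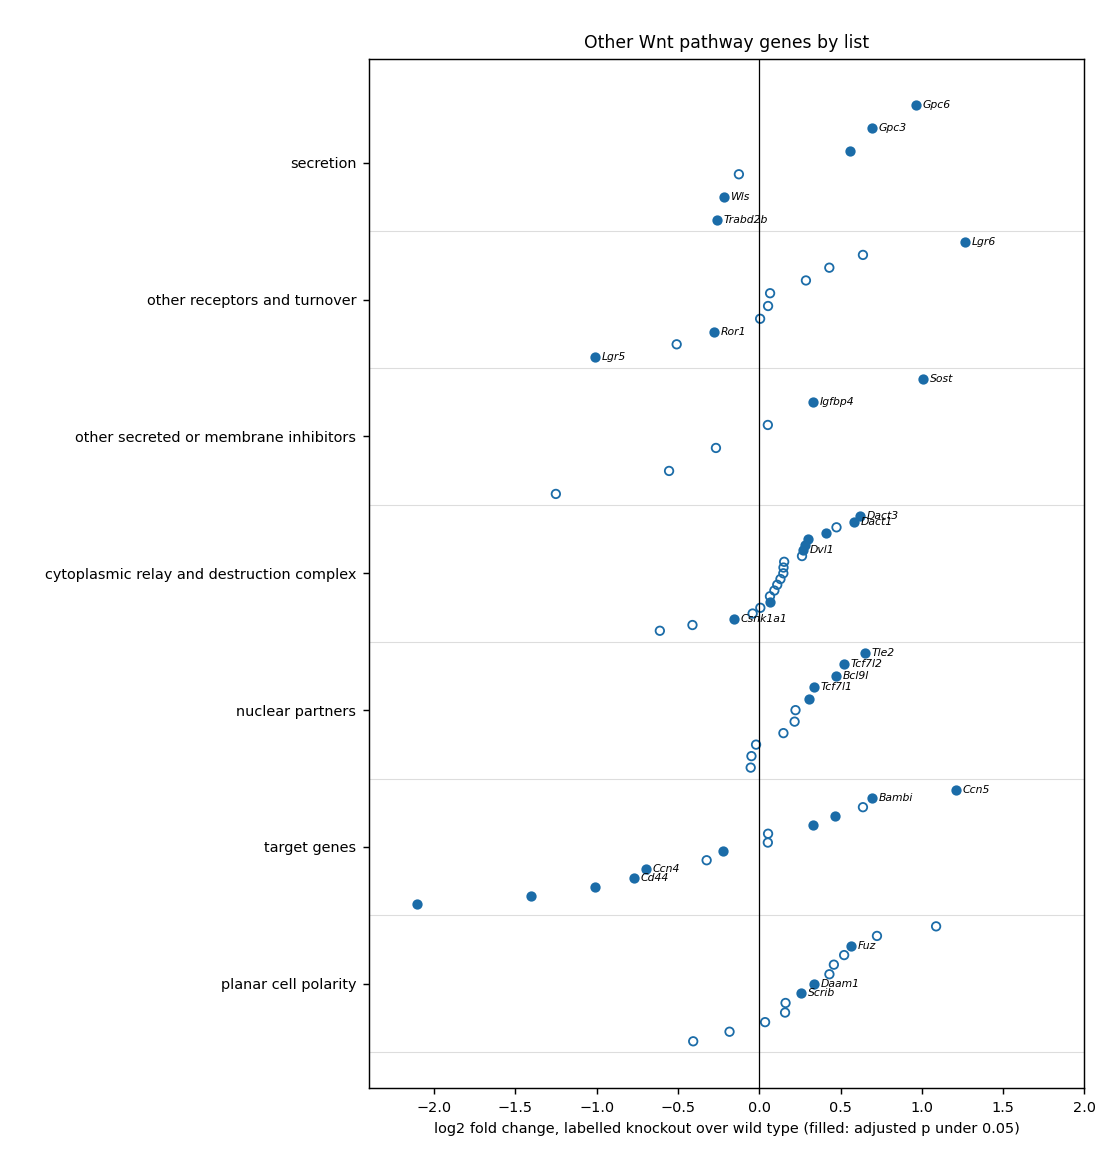
Each point is the log2 fold change of 1 tested gene outside the 46 members, labelled knockout over wild type, in 7 pathway lists; filled points passed an adjusted p under 0.05 by edgeR, and the 4 genes of each list with the smallest p are named where called. Called nuclear partners and polarity genes all lie to the right of 0, and called target genes lie on both sides.

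The members' directions were compared under other library scalings because of the mitochondrial share. With library totals, 19 members were called higher and 5 lower, and the calls over all genes went from 53.4% higher to 92.5% higher. Wnt16, Wnt2, Sfrp4, Sfrp5 and Rspo1 stayed lower with library totals, at log2 fold changes of -0.70, -0.69, -0.34, -0.99 and -1.57. Fzd7 turned to higher. Fzd8, Frzb and Sfrp1 also gained a call as higher with library totals, at 0.58, 0.26 and 0.31, beside Wnt9a and Wnt11. With totals from which mitochondrial genes and their 8 nuclear copies were left out, a setting added after the data were seen, 13 members were called higher and 5 lower. Of the 19 called members, 16 kept their direction and their call in all 17 other settings in which they were tested, and the exceptions were Fzd7, Lrp5 and Rspo1.

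**Figure D5:**
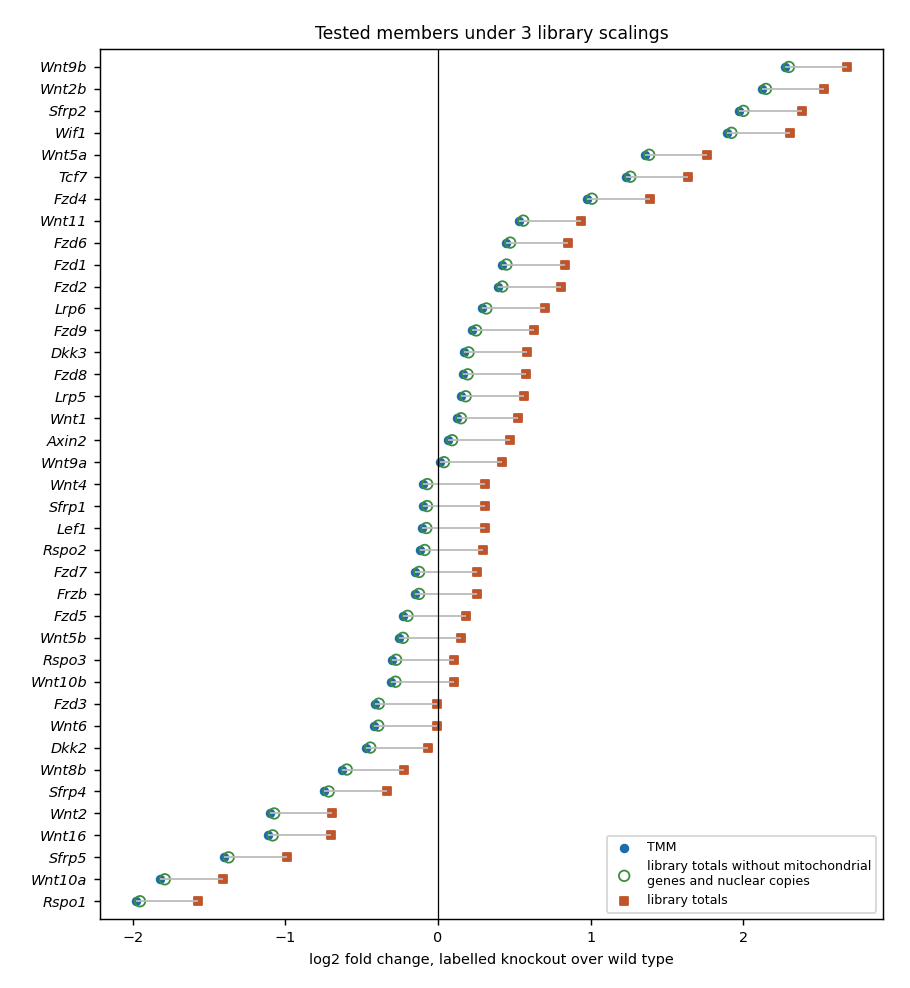
Log2 fold changes of the 39 tested members, labelled knockout over wild type, under 3 library scalings. Values with library totals lie about 0.41 to the right of those with TMM for every member, and those with totals that leave out mitochondrial genes and copies lie within 0.03 of TMM.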

How the data were processed

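Per the labels' protocols, Trizol RNA of aorta was selected for poly(A) and sequenced in read pairs on a NovaSeq. Estimated counts and FPKM for 41064 genes were deposited by the authors in a single table. Tools named in the submitters' processing notes were HISAT2 2.0 and Bowtie 0.12.2, with the build mm8. The counting tool, the annotation and the use of strand were not given in the sources used here. By the annotation, 8 members share exon bases with an antisense gene. Member coordinates equal those of GENCODE M21 on GRCm38 for 42 of 46 members and are given as the table has them. The deposited counts are whole numbers that peak at multiples of 4, so they were treated as estimated counts, at about 4 per read pair, a reading that rests on these peaks alone. Rounding changed none. The FPKM values were scaled by the authors to library totals that include mitochondrial genes.

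Genes passed edgeR's filterByExpr (20132 of 41064), libraries were scaled by TMM, and edgeR's quasi-likelihood test was run over all of them with Benjamini-Hochberg adjustment and a threshold of 0.05. The SE is the log2 fold change divided by the square root of the F statistic. edgeR's common biological coefficient of variation was 24.4% and its prior degrees of freedom 6.59. CPM are deposited counts over the TMM-scaled library size. The limit of 3 read pairs, or 12 counts, per library covers counting error only. The steps were tested on simulated data. Samples were grouped by the genotype label, and no batch is stated. With 3 against 3 libraries, an exact permutation test cannot go below 0.1, so none was used.

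The members and the gene lists were chosen with earlier results of these data known. Genes named by rule are all members, Josd2 and the 4 genes of smallest p in each of 7 pathway lists. Other pathway genes are said to be named after their values were seen. Single genes of the cell type marker lists fall outside that rule and were named with their values known. Alternatives were library totals, DESeq2, DESeq2 size factors within edgeR, mitochondrial genes left out, no filter, a filter on mean FPKM of 1, counts divided by 4, limma on log2(FPKM + 1) and log2(FPKM + 0.1), the replicate number as a block, and each library left out. The versions were edgeR 4.0.16, DESeq2 1.42.0 and limma 3.58.1 in R 4.3.3, and BLAST+ 2.17.0, the last to find near-identical transcripts (at least 97% identity over 100 bases). Beside the antisense genes, stretches of Wnt11 (10.5% of the transcript), Lrp6 (4.28%), Wnt4 (3.31%) and Lrp5 (1.12%) had such a match in another gene, so counts of these 4 members are uncertain to that extent.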

Additional observations from a re-analysis of the deposited data

How the results depend on the processing

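Counts of calls over all genes were 4981 and moved most with the library scale: 10193 with library totals in edgeR, 10314 with limma on log2(FPKM + 1) and 10196 with limma on log2(FPKM + 0.1). The other pathway genes called higher went from 25 to 57, 54 and 53 under those settings, and those called lower from 10 to 4 in each. FPKM share the scale of library totals, so these settings include the mitochondrial share by construction. Members went from 13 higher and 6 lower to 19 and 5, 19 and 5, and 18 and 5. DESeq2 called 13 and 7. With each library left out in turn, members higher were 12 to 14, members lower 4 to 6, pathway genes higher 17 to 23, pathway genes lower 9 to 11, and all calls 3756 to 4458.

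Replicate numbers did not pair the libraries: deviations of same-numbered libraries correlated at 0.034, -0.023 and -0.0096. Only the libraries numbered 1 correlated best with their own number. With the number as a block, edgeR made 4560 calls, 13 members higher and 5 lower. The calls of Fzd7 (adjusted p = 0.0695), Scrib (0.0563), Nkd2 (0.0702) and Ccnd1 (0.0525) did not pass in that fit. Lef1 had a log2 fold change of 0.0053 there.

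Log2 fold changes turned in sign with library totals for Ccnd1 0.18, Csnk1a1 0.25, Daam2 0.0041, Frzb 0.26, Fzd5 0.18, Fzd7 0.26, Lef1 0.30, Ror1 0.13, Rspo2 0.29, Rspo3 0.11, Sfrp1 0.31, Tpbg 0.14, Trabd2b 0.15, Wls 0.20, Wnt10b 0.10, Wnt4 0.31, Wnt5b 0.15. They turned with limma on log2(FPKM + 0.1) for Ccnd1 0.18, Csnk1a1 0.25, Frzb 0.25, Fzd5 0.15, Fzd7 0.25, Lef1 0.18, Ror1 0.13, Rspo2 0.15, Rspo3 0.11, Sfrp1 0.30, Tpbg 0.14, Trabd2b 0.15, Wls 0.19, Wnt10b 0.074, Wnt4 0.17, Wnt5b 0.14, Wnt6 0.033, and with limma on log2(FPKM + 1) for Ccnd1 0.16, Csnk1a1 0.24, Frzb 0.24, Fzd5 0.10, Fzd7 0.24, Lef1 0.028, Ror1 0.11, Rspo2 0.025, Rspo3 0.065, Sfrp1 0.25, Tpbg 0.048, Trabd2b 0.14, Wls 0.18, Wnt10b 0.016, Wnt4 0.045, Wnt5b 0.079, Wnt6 0.0023. Wnt9a turned to -0.011 with counts divided by 4 and to -0.014 with the FPKM filter. Leaving out 1 library in turn gave values of both signs for Axin2 (-0.074 to 0.22), Fzd9 (-0.16 to 0.70), Lef1 (-0.35 to 0.40), Rspo2 (-0.31 to 0.023), Wnt1 (-0.60 to 0.63), Wnt4 (-0.40 to 0.22), Wnt6 (-0.64 to 0.081), Wnt8b (-1.20 to 0.28), Wnt9a (-0.028 to 0.045), and the cause was not tested. Of 1235 values of named genes under other settings, 1093 stayed on the same side of the threshold with the same sign, 50 lost the call, 25 gained one and 67 turned. The 16 members called in every setting had an adjusted p of at most 0.03. Depth limits members under about 1 CPM.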

Other observations

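Within the list of Wnt target genes, some called genes outside the rule for named genes are given here, named after their values were seen. Tnfrsf19, a receptor of the tumour necrosis factor family, was at 1.45, 2.41 and 2.56 CPM in wild type and 0.423, 0.504 and 0.564 CPM in the libraries labelled knockout and fell (log2FC -2.10, SE 0.35, edgeR adjusted p = 0.00103). Fgf18, a growth factor of cartilage and lung, was at 3.86, 4.84 and 2.996 CPM in wild type and 1.14, 1.47 and 1.80 CPM in the libraries labelled knockout and fell as well (log2FC -1.40, SE 0.27, edgeR adjusted p = 0.00266). For both, no library labelled knockout reached the wild type range. The part of lung tissue in the Fgf18 values was not tested. The intracellular Wnt antagonists Nkd1 and Nkd2 passed as higher (log2FC 0.33, SE 0.09, edgeR adjusted p = 0.0194 for Nkd1, and log2FC 0.46, SE 0.15, edgeR adjusted p = 0.0466 for Nkd2). The call of Nkd1 was lost without the second wild type or without the second or the third labelled knockout library (edgeR adjusted p = 0.0523 to 0.0771), and that of Nkd2 without any library but the third labelled knockout one (0.0532 to 0.199). Ccnd1, which encodes cyclin D1, passed as lower with TMM (log2FC -0.23, SE 0.06, edgeR adjusted p = 0.0251) but was at 0.18 with library totals. Without the first or second library of either group its edgeR adjusted p was 0.0538 to 0.112.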
